A study of Homo sapiens with 6 samples.

Results

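The 44 genes described here encode the mitotic spindle and the regulators of the G2/M transition, as measured in LNCaP cells transfected with a miR-331-3p precursor. They were taken as a list of gene symbols, which was chosen with earlier results of these data known. A gene entered through an array probe with that symbol and a mean log2 signal of at least 7 over the 6 arrays, and the probe with the highest mean stood for its gene. All 44 listed genes had such a probe, among 10502 named genes and 16752 probes that reached the same minimum. LNCaP is an androgen-sensitive prostate cancer line from a lymph node metastasis. The tested cells were LNCaP transfected for 24 h with 30 nM pre-miR-331-3p (3 arrays, labelled miR-331-3p A, B and C), and the controls were LNCaP transfected for 24 h with 30 nM pre-miR-NC, a negative control precursor (3 arrays, labelled miR-NC A, B and C). Both groups were grown in RPMI with 10% FBS and received Lipofectamine 2000, and no group without a transfected precursor was analysed here. A single cell line at a single time was used, and the precursor is a synthetic molecule given at a dose that need not match the level of the miRNA in any tissue. The study asked which genes respond to miR-331-3p, and it also treated prostate cancer cells with an inhibitor of Aurora kinases, whose genes are members of the list.

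As cells pass from G2 into mitosis, CDK1 with its cyclins starts chromosome condensation and spindle assembly, and the Aurora and Polo-like kinases build the spindle and correct the attachment of chromosomes to it. The spindle assembly checkpoint holds the anaphase-promoting complex back until every kinetochore is attached. Destruction of securin and cyclin B then lets chromatids separate, and the central spindle directs cytokinesis. Most of these genes are transcribed in late S, G2 and M phase, through promoters that bind the DREAM and MuvB complexes at a cell cycle homology region (CHR) and NF-Y at CCAAT boxes, and their levels are widely read as a measure of proliferation in prostate cancer. A microRNA acts on an mRNA mainly by pairing of its seed, bases 2 to 8, with the transcript. The mature strand that the precursor is named for is shown here with its seed in capitals (RefSeq, GRCh38.p14, chr12:95308480-95308500, + strand).
hsa-miR-331-3p: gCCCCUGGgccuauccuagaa

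Promoter sequences were at hand for 36 of the 44 genes (RefSeq, GRCh38.p14, 300 bases, with 250 before and 50 after the start of transcription). The entries for AURKA, TPX2, BIRC5, FOXM1, BUB3, RACGAP1, TTK and UBE2C were missing. The CHR, searched as TTTGAA or TTCGAA on both strands, was found in 26 of these 36 promoters (72.2%), against 16.6% of the 27305 promoters searched. CCAAT, on both strands, was found in 29 (80.6%), against 35.7% of all promoters, and both motifs in 23 (63.9%), against 6.58%. The 2 motifs can overlap, as they do by 1 base in CDCA8. Of 125 other mitotic genes, 42.4% had the CHR, 52.8% had CCAAT and 25.6% had both. Among the list's own genes, the CHR was found in 2 of the 3 promoters of genes called lower below and in 24 of the 33 others (72.7%). The sequences of the 3 called genes CDCA8, KIF11 and CCNA2 are shown together with CDK1 and CCNB1, the core kinase and cyclin of mitotic entry, which were not called. Each is the 170 bases before the start of transcription, 5′ to 3′ on the gene's strand, with the CHR and CCAAT matches in capitals (ATTGG and TTCAAA are matches on the other strand). They lie at chr1:37692346-37692515 (+ strand), chr10:92592960-92593129 (+ strand), chr4:121823884-121824053 (- strand), chr10:60778161-60778330 (+ strand) and chr5:69166980-69167149 (+ strand).
CDCA8: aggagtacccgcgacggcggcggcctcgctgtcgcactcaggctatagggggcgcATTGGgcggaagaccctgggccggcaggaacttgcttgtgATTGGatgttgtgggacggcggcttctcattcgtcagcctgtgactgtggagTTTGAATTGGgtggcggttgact
KIF11: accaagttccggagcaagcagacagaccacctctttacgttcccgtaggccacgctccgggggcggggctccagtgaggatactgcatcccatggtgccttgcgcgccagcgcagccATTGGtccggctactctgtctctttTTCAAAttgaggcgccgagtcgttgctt
CCNA2: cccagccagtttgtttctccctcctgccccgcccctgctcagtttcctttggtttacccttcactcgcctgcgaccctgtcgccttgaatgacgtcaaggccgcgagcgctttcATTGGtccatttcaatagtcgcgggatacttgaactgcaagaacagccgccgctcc
CDK1: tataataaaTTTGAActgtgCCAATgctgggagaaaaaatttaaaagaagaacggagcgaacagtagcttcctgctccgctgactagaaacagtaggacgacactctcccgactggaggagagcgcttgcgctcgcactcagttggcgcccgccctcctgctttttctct
CCNB1: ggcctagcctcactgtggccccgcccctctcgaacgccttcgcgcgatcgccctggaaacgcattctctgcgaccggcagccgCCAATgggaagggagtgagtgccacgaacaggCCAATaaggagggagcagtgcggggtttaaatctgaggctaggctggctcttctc
In CDCA8 the CHR begins at -23, in KIF11 at -28 and in CDK1 at -161, counted from the start of transcription. The letters searched for as the CHR were not found in the windows of CCNA2 and CCNB1. Other spellings of the CHR were not searched for, and only the first promoter entry of each gene was used. A CHR in these promoters, or near another start of transcription, is therefore not excluded. A match is a feature of the sequence and says nothing of binding in these cells.

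The direction of every difference rests on the labels. All differences are those of the arrays labelled miR-331-3p minus those labelled miR-NC, and at ERBB2 and RALA, which the study treats as targets of the miRNA, this direction was opposite to the study's. ERBB2, the receptor tyrosine kinase HER2, had log2 signals of 10.75, 10.71 and 10.94 in the arrays labelled miR-331-3p, against 9.69, 9.71 and 9.68 in those labelled miR-NC, a difference of 1.11 (adjusted p = 1.8e-05 from limma). RALA, a small GTPase, had a difference of 0.96 (adjusted p = 8.4e-05 from limma). The folds under the labels were 2.16 for ERBB2 and 1.94 for RALA. The study reports array decreases of nearly the same size for both genes. Whether the labels of the groups are exchanged was not tested. Lower and higher are used here for the arrays as labelled, and the direction under the precursor itself was not settled. If the labels of the groups were exchanged, the sign of every difference given here would turn and every gene called lower would be called higher, at the same size and p.

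Across the whole table, the deposited log2 signals ran from 6.52 to 13.94 for 48802 probes, and every array had a median of 6.87. Arrays correlated at 0.992 to 0.996 within miR-331-3p, at 0.996 within miR-NC and at 0.988 to 0.994 between the groups, over all probes. The array miR-331-3p C had the lowest array weight, a measure of how closely an array follows its group, 0.433, against 0.963 to 1.56 for the others. Luminal prostate markers were well above the minimum, with mean signals of the 7 analysed of 8.27 to 12.69. In the arrays labelled miR-331-3p, TMPRSS2 was higher (0.53, adjusted p = 0.0023 from limma). KLK2 was also higher in those arrays (0.33, adjusted p = 0.015 from limma, not called without miR-NC A or B, at 0.058 and 0.067). The other 5 luminal markers were not called, with differences of -0.23 (KLK3, adjusted p = 0.16 from limma) to 0.34 (KRT8, adjusted p = 0.14 from limma). The basal markers KRT5 and KRT14 stayed under the minimum. Of the markers of other cell types, 0 of 3 leukocyte genes reached the minimum, 1 of 3 fibroblast genes did (COL1A1, at 7.24) and 2 of 3 endothelial genes did (VWF at 8.22 and PECAM1 at 7.10). None of these 3 was called. Of the reference genes the study used for RT-qPCR, GAPDH had a log2 difference of -0.34 (adjusted p = 0.017 from limma, and 0.064 to 0.072 without miR-331-3p B, miR-NC A or miR-NC C), while ACTB, TUBA1B and HPRT1 were not called.

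In the arrays labelled miR-331-3p, 6 of the 44 mitotic genes were lower (13.6%), beside 3.66% of all probes tested. These were AURKA, TPX2, CDCA8, BIRC5, CCNA2 and KIF11, with folds of 0.72 to 0.80 (probes ILMN_1680955, ILMN_1796949, ILMN_1709294, ILMN_2349459, ILMN_1786125 and ILMN_1794539). None of the 44 was higher, beside 4.30% of all probes. Because the list was chosen with earlier results of these data known, these shares and those below only describe it. In these 6 genes every array labelled miR-331-3p was below every array labelled miR-NC, as in 13.3% of all probes. The calls were made on these same values, so the separation adds no support to them. A difference was called at an adjusted p under 0.05 from limma, with Benjamini-Hochberg adjustment over the 16752 probes. The p-values measure the spread between arrays, since neither the labels nor the methods say which arrays came from separate cultures, and with 3 arrays a group the smallest p of an exact permutation test is 0.1. In RNA from whole cultures, a different share of cells in G2 and mitosis and a different number of transcripts per cell cannot be told apart.

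The remaining 38 genes were not called, yet most lay on the same side. The difference was negative in 36 of the 44 genes (81.8%), against 50.8% of all probes tested, and positive in 8. The median difference was -0.11, against -0.0028 over all probes. At an unadjusted p under 0.05, 14 genes were lower (31.8%), beside 11.2% of all probes, and 0 were higher, beside 10.8%. In 15 genes (34.1%) all 3 arrays labelled miR-331-3p were below all 3 labelled miR-NC, beside 13.3% of all probes, and in 1 gene, BUB3, they were all above, beside 13.4%. The groups overlapped in 28 genes. By the methods' t-test with the same adjustment, 0 of the 44 were lower, beside 0.293% of all probes, and 0 were higher, beside 0.686%; unadjusted, that test gave 10 lower. The count of 6 was 3 without miR-NC A, 2 without miR-NC B, 2 without miR-NC C and 3 without miR-331-3p B.

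**Figure D1:**
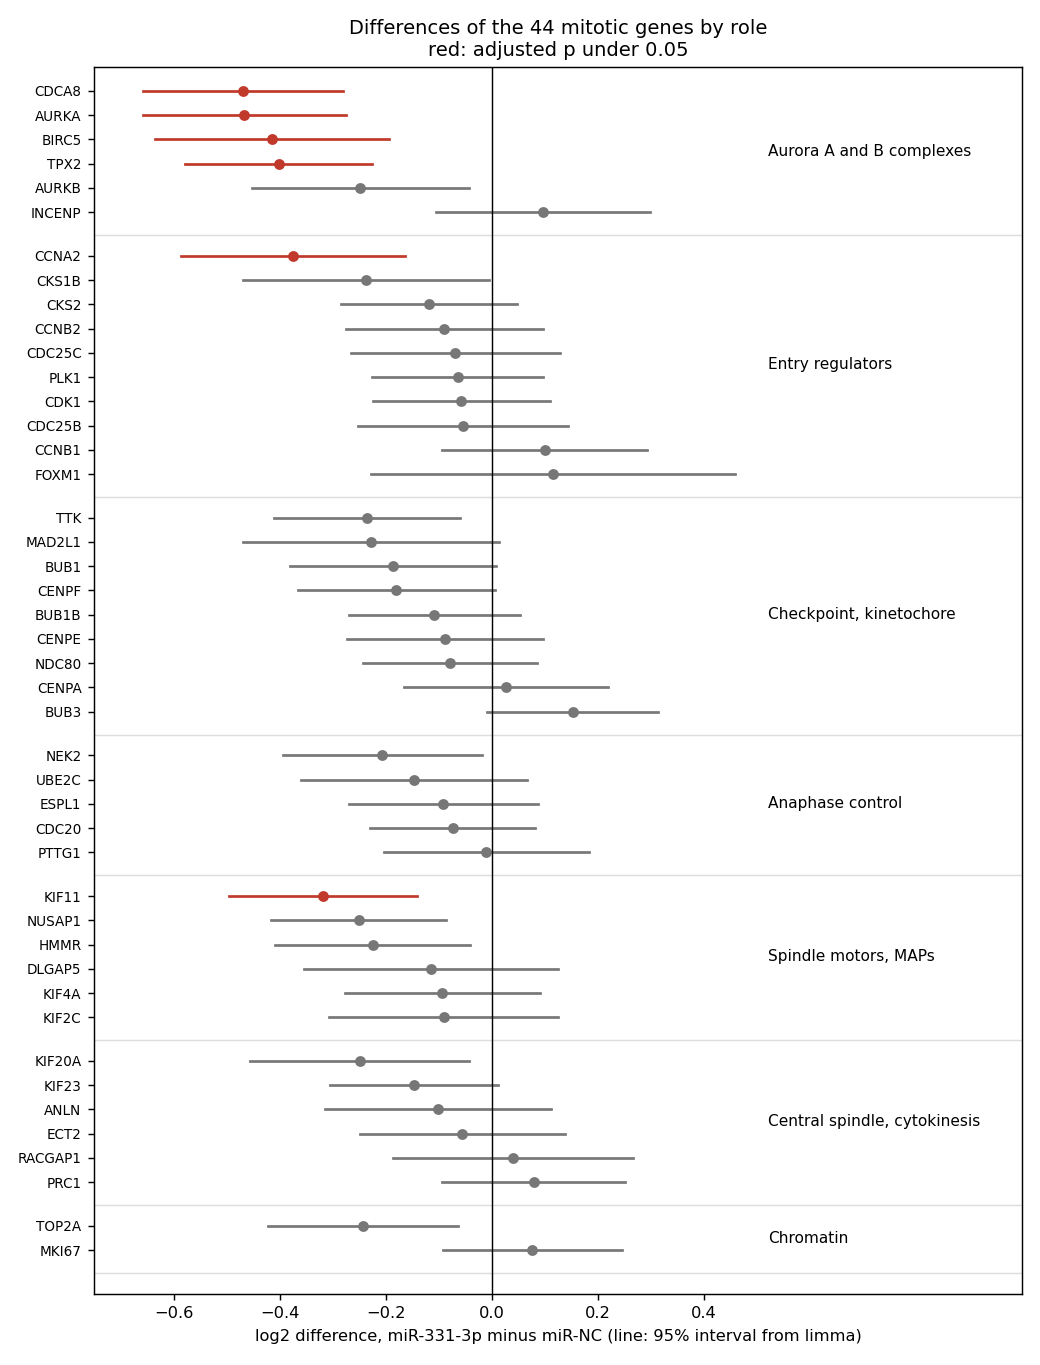
Log2 difference (x axis, miR-331-3p minus miR-NC) of each of the 44 genes, grouped by role down the page, with points for the estimates and lines for 95% intervals from limma, and red for an adjusted p under 0.05. Of the 6 red genes, 4 belong to the Aurora kinase complexes, 1 to the entry regulators and 1 to the spindle motors, and 36 of the 44 points lie left of 0.

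The Aurora kinases and their partners held 4 of the 6 called genes. Of the 6 genes in this group, AURKA, TPX2, CDCA8 and BIRC5 were lower (66.7%), beside 3.66% of all probes tested. AURKB and INCENP were not called, and the median difference was -0.41. The group, like the list, was drawn up with earlier results of these data known. Only AURKA and CDCA8 kept the call without each array in turn. Aurora A works at centrosomes and spindle poles and is activated by TPX2. Aurora B works at centromeres as the kinase of the chromosomal passenger complex, whose other subunits are INCENP, borealin (CDCA8) and survivin (BIRC5).

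AURKA had log2 signals of 10.13, 9.91 and 9.98 in the arrays labelled miR-331-3p, against 10.42, 10.60 and 10.40 in those labelled miR-NC. The highest value labelled miR-331-3p, in array A, was still below the lowest labelled miR-NC. Its mean was 10.00 ± 0.11 and 10.47 ± 0.11 (SD, n = 3 each), a difference of -0.47 (SE, its SE in the fit, 0.087; adjusted p = 0.0082 from limma), or 0.72 fold. Leaving out any 1 array kept the call, at adjusted p from 0.0076 to 0.045. A less bright AURKA probe also passed, with means of 9.81 and 10.17 and a difference of -0.35 (adjusted p = 0.039 from limma), but it lost the call without miR-331-3p A or B or miR-NC B or C (adjusted p from 0.057 to 0.16). TPX2, which brings Aurora A to spindle microtubules, had 9.39, 9.38 and 9.34 in the arrays labelled miR-331-3p, against 9.64, 9.82 and 9.86 in those labelled miR-NC, with SDs of 0.027 and 0.12. Its difference was -0.40 (SE 0.080, adjusted p = 0.011 from limma), and its call was lost without miR-NC B (adjusted p = 0.060) or without miR-NC C (adjusted p = 0.064).

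CDCA8 had the largest decrease of the 44 genes, with log2 signals of 9.70, 9.79 and 9.74 in the arrays labelled miR-331-3p, against 10.10, 10.16 and 10.37 in those labelled miR-NC. The 2 groups stood well apart at this gene, and miR-NC C was the highest array. The difference was -0.47 (SE 0.086, adjusted p = 0.0073 from limma), or 0.72 fold, and it passed without each array in turn at adjusted p from 0.0063 to 0.038. BIRC5, also an inhibitor of apoptosis, had 9.29, 9.21 and 9.57 in the arrays labelled miR-331-3p, against 9.88, 9.71 and 9.73 in those labelled miR-NC. Array miR-331-3p C lay closer to the miR-NC arrays than to its own group here. The difference was -0.42 (SE 0.10, adjusted p = 0.029 from limma). It was -0.52 without miR-331-3p C (adjusted p = 0.0014), and leaving out any other array lost the call (adjusted p from 0.071 to 0.11). The dimmer BIRC5 probe had a difference of -0.28 (adjusted p = 0.055 from limma), which passed with array weights (0.049) and with an intensity trend in the variance (0.043).

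AURKB, the catalytic subunit, had 9.60, 9.68 and 9.91 in the arrays labelled miR-331-3p, against 10.08, 9.93 and 9.93 in those labelled miR-NC, so that miR-331-3p C came within a few hundredths of the controls without crossing them. Its difference of -0.25 was not called (95% interval -0.45 to -0.04, adjusted p = 0.14 from limma). It passed without miR-331-3p C, at -0.34 (adjusted p = 0.022), and with array weights (adjusted p = 0.042). INCENP, the scaffold that holds the complex together, had 8.05, 8.36 and 8.15 in the arrays labelled miR-331-3p, against 8.19, 8.04 and 8.04 in those labelled miR-NC. These values overlap, with a positive difference of 0.10 (95% interval -0.11 to 0.30, adjusted p = 0.61 from limma). The 4 subunits of the passenger complex thus comprised 2 called genes, 1 with separated groups that was not called and 1 with overlapping groups; differences between subunits were not tested.

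**Figure D2:**
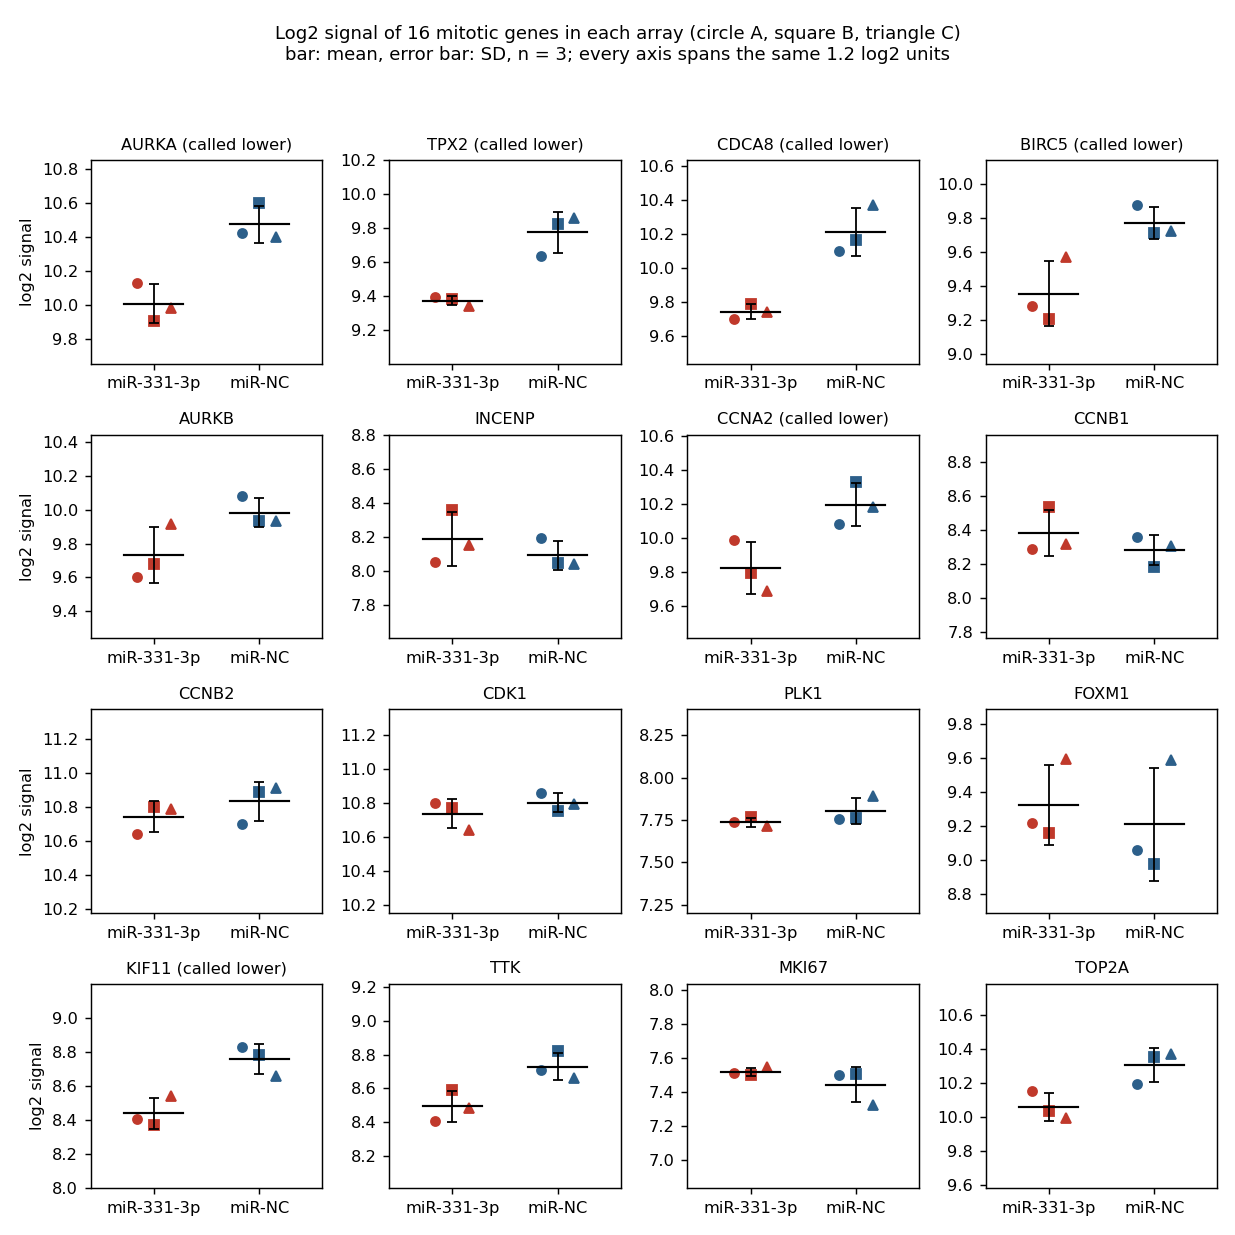
Log2 signal (y axis, each axis spanning 1.2 log2 units) of 16 mitotic genes in the 3 arrays labelled miR-331-3p (red, left) and the 3 labelled miR-NC (blue, right), with circles for array A, squares for B and triangles for C, and bars for the mean and SD. AURKA, TPX2, CDCA8, BIRC5, CCNA2 and KIF11 show separated groups and adjusted p under 0.05, while CCNB1, CDK1, PLK1, FOXM1 and MKI67 overlap, and in FOXM1 array C is the highest of both groups.

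Among the 10 regulators of mitotic entry, CCNA2 alone was lower (10%), beside 3.66% of all probes tested. The median difference of the group was -0.07, and differences between the groups of genes were not tested. Cyclin A2, the product of CCNA2, drives CDK2 and CDK1 in S and G2 phase. CCNA2 had log2 signals of 9.99, 9.79 and 9.69 in the arrays labelled miR-331-3p, against 10.08, 10.33 and 10.18 in those labelled miR-NC, with a gap of under 0.1 between miR-331-3p A and miR-NC A. The difference was -0.37 (SE 0.096, adjusted p = 0.037 from limma), or 0.77 fold. Without miR-331-3p A the call stood at -0.46 (adjusted p = 0.018), and leaving out any other array lost it (adjusted p from 0.053 to 0.16).

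The kinase and cyclin at the centre of mitotic entry showed no such separation. CDK1 had 10.80, 10.77 and 10.64 in the arrays labelled miR-331-3p, against 10.86, 10.75 and 10.79 in those labelled miR-NC, a difference of -0.06 (95% interval -0.23 to 0.11, adjusted p = 0.73 from limma). A dimmer CDK1 probe went the other way, at 0.16 (95% interval -0.10 to 0.42), and without miR-331-3p C that probe passed (adjusted p = 0.037). CCNB1, which encodes cyclin B1, had 8.29, 8.54 and 8.32 in the arrays labelled miR-331-3p, against 8.36, 8.19 and 8.31 in those labelled miR-NC. The groups overlap, with a difference of 0.10 (95% interval -0.09 to 0.29, adjusted p = 0.57 from limma). PLK1, the Polo-like kinase, had 7.74, 7.76 and 7.71 in the arrays labelled miR-331-3p, against 7.76, 7.76 and 7.89 in those labelled miR-NC, which differ mainly through miR-NC C (difference -0.06, 95% interval -0.23 to 0.10, adjusted p = 0.68 from limma). The mean signal of PLK1 was 7.77, and the variance stabilisation compresses differences at low signals.

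FOXM1, a transcription factor that drives many G2/M genes, varied most between arrays of the same group. It had 9.22, 9.16 and 9.59 in the arrays labelled miR-331-3p, against 9.06, 8.98 and 9.59 in those labelled miR-NC, and array C was the highest of either group. Its SD was 0.24 in miR-331-3p and 0.33 in miR-NC, the highest of the 44 genes in both groups, where the median SD was 0.090 and 0.097. The difference was 0.12 (95% interval -0.23 to 0.46, adjusted p = 0.74 from limma), an interval that holds decreases as well as increases. The other FOXM1 probe had a difference of 0.10. CCNB2, which encodes cyclin B2, the CDK1-activating phosphatases CDC25B and CDC25C and the CDK-binding subunits CKS1B and CKS2 had differences of -0.24 to -0.06, none of them called (adjusted p from 0.21 to 0.79).

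All 6 spindle motors and microtubule-binding proteins had negative differences (100%), against 50.8% of all probes tested. KIF11 alone was lower (16.7%), beside 3.66% of all probes. Its product, the kinesin Eg5, slides microtubules apart to make the spindle bipolar. KIF11 had log2 signals of 8.41, 8.37 and 8.54 in the arrays labelled miR-331-3p, against 8.83, 8.78 and 8.66 in those labelled miR-NC, with array C nearest to the other group on both sides. The difference was -0.32 (SE 0.081, adjusted p = 0.035 from limma), or 0.80 fold. Without miR-331-3p C the adjusted p was 0.013, and without any other array the call was lost (adjusted p from 0.058 to 0.13), as it was with a replicate block (adjusted p = 0.0503) and with an intensity trend in the variance (adjusted p = 0.055). The other KIF11 probe had a difference of -0.18 (95% interval -0.34 to -0.02) and was not called.

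NUSAP1, a microtubule-bundling protein, is given here because it came nearest to the threshold, a choice made after its values were seen. It had 10.77, 10.87 and 10.87 in the arrays labelled miR-331-3p, against 11.09, 11.16 and 11.02 in those labelled miR-NC. The groups did not overlap, with a difference of -0.25 (SE 0.075, adjusted p = 0.067 from limma), which passed with array weights (adjusted p = 0.048). The other probe of this gene had a smaller difference, -0.11. HMMR, a spindle pole protein, also had groups that did not overlap (-0.23, adjusted p = 0.14 from limma), but its other probe had a difference of -0.02 (adjusted p = 0.94 from limma). DLGAP5, KIF4A and KIF2C, which encode a microtubule stabiliser, a chromosome-bound kinesin and a microtubule-depolymerising kinesin, had overlapping groups and differences of -0.11 to -0.09.

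None of the 9 genes of the spindle assembly checkpoint and the kinetochore was called, beside 3.66% of all probes lower and 4.30% higher. Their median difference was -0.11, with a range of -0.23 to 0.15. BUB1B, which encodes the checkpoint kinase BubR1, had 7.51, 7.46 and 7.52 in the arrays labelled miR-331-3p, against 7.58, 7.55 and 7.69 in those labelled miR-NC. These groups did not overlap, and the difference was -0.11 (95% interval -0.27 to 0.05, adjusted p = 0.44 from limma). The mean signal of BUB1B, 7.55, was close to the minimum of 7, where the variance stabilisation compresses differences. TTK, the kinase MPS1 that starts checkpoint signalling, was the lowest of the group, at -0.23 (95% interval -0.41 to -0.06, adjusted p = 0.10 from limma). MAD2L1, BUB1, CENPF, CENPE and NDC80 had negative differences with overlapping groups. CENPA, the histone variant of centromeres, was among the genes nearest to 0, at 0.03 (95% interval -0.17 to 0.22).

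BUB3, the checkpoint protein that carries BUB1 and BubR1 to kinetochores, was the only one of the 44 whose arrays labelled miR-331-3p all lay above those labelled miR-NC, and was picked out after its values were seen. Its brightest probe had 11.91, 11.95 and 12.02 in the arrays labelled miR-331-3p, against 11.75, 11.88 and 11.80 in those labelled miR-NC, a difference of 0.15 that was not called (95% interval -0.01 to 0.31, adjusted p = 0.25 from limma). A dimmer BUB3 probe was higher, with means of 8.97 and 8.64 and a difference of 0.33 (adjusted p = 0.017 from limma). That call was lost without miR-331-3p B (adjusted p = 0.070), without miR-NC B (0.073) and without miR-NC C (0.082). The remaining BUB3 probe above the minimum had a difference of 0.08.

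In the group that controls anaphase, all 5 differences were negative (100%), against 50.8% of all probes tested. Their median was -0.09, and 0 genes were called, beside 3.66% of all probes lower and 4.30% higher. CDC20, the activator of the anaphase-promoting complex in mitosis, had 11.07, 11.12 and 11.18 in the arrays labelled miR-331-3p, against 11.17, 11.21 and 11.21 in those labelled miR-NC. The groups overlap at miR-331-3p C and miR-NC A, and the difference was -0.07 (95% interval -0.23 to 0.08, adjusted p = 0.61 from limma). NEK2, a kinase of centrosome separation, had the lowest difference of the group, -0.21 (95% interval -0.39 to -0.02, adjusted p = 0.18 from limma), and its other probe had -0.27 without passing. UBE2C, the ubiquitin-conjugating enzyme of the complex, and ESPL1, separase, had -0.15 and -0.09. PTTG1, which encodes securin, had the smallest difference of the 44 genes, -0.01 (95% interval -0.20 to 0.18).

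The 6 genes of the central spindle and cytokinesis had a median difference of -0.08. Differences were negative in 4 (66.7%), against 50.8% of all probes tested, and positive in 2. Of these genes 0 were called, beside 3.66% of all probes lower and 4.30% higher. KIF20A, a kinesin of the central spindle, had -0.25 with groups that overlapped (adjusted p = 0.14 from limma). KIF23, a subunit of the centralspindlin complex, had -0.15 with groups that did not. Its partner subunit RACGAP1 had 0.04 (95% interval -0.19 to 0.27), also among the genes nearest to 0. ANLN and ECT2, the anillin scaffold and the exchange factor that activates RHOA, had -0.10 and -0.06, and PRC1, the microtubule bundler of the midzone, had 0.08.

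The chromatin genes most often used to mark dividing cells differed in sign. TOP2A, the topoisomerase that untangles chromatids, had 10.15, 10.03 and 9.99 in the arrays labelled miR-331-3p, against 10.19, 10.35 and 10.37 in those labelled miR-NC. The groups did not overlap, by a margin of under 0.1 between the A arrays, and the difference of -0.24 was not called (95% interval -0.42 to -0.07, adjusted p = 0.099 from limma). MKI67, which encodes Ki-67, had 7.51, 7.5 and 7.55 in the arrays labelled miR-331-3p, against 7.499, 7.51 and 7.33 in those labelled miR-NC. Its difference was 0.08 (95% interval -0.09 to 0.24, adjusted p = 0.63 from limma), at a signal close to the minimum of 7, where the variance stabilisation compresses differences.

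**Figure D3:**
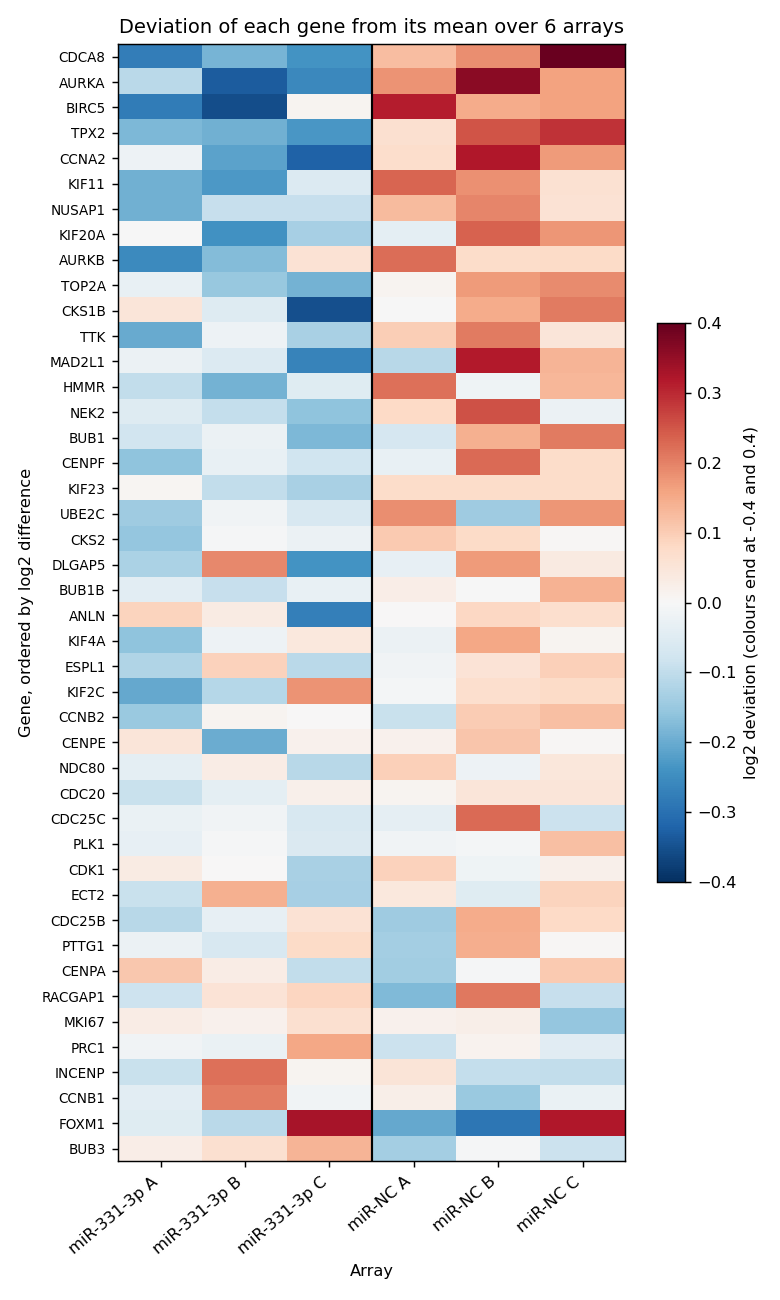
Deviation of each of the 44 genes (rows, ordered by log2 difference) from its own mean over the 6 arrays (columns, miR-331-3p left of the line and miR-NC right of it), in log2 units, blue below and red above the mean, with colours ending at -0.4 and 0.4. The upper rows are mostly blue in the columns of miR-331-3p and mostly red in those of miR-NC, and the row of FOXM1 is red in array C of both groups.

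In each array the list as a whole lay on its group's side of 0. The mean deviation of the 44 genes from their own means was -0.080 in miR-331-3p A, -0.054 in miR-331-3p B and -0.067 in miR-331-3p C, against 0.023 in miR-NC A, 0.098 in miR-NC B and 0.081 in miR-NC C. The same mean over all probes tested was within 0.0035 of 0 in every array. The number of genes above their own mean was 8, 13 and 15 of 44 in the arrays labelled miR-331-3p, against 26, 32 and 36 in those labelled miR-NC. The array miR-NC A was nearest to 0 of the 6. Genes of a list share arrays and the cell cycle, so these counts describe the arrays and are not independent observations.

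Of the 44 genes, 20 had more than 1 probe and 16 had more than 1 at the minimum signal. Those 16 genes held 18 further probes, of which 15 had the sign of the brightest probe of their gene. Of the 18, 1 was called lower (AURKA, 5.56%), close to the 3.66% of all probes tested. Another 1 was called higher (BUB3, 5.56%), close to the 4.30% of all probes. The 3 with the other sign were those of CDK1, CKS2 and CENPA. The remaining 5 further probes were under the minimum. For 14 of the 44 genes the annotation holds pseudogenes by symbol, among them 7 of CKS1B, 5 of UBE2C, 4 of NEK2 and 2 of AURKA. Probe sequences were not used here, so signal from such copies cannot be told apart from that of the gene.

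**Figure D4:**
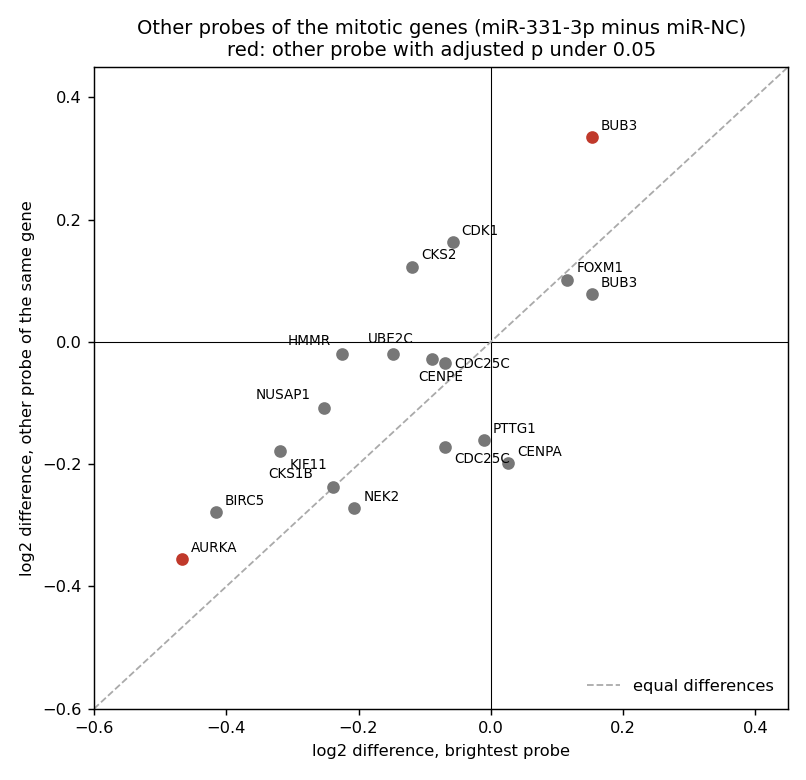
Log2 difference (miR-331-3p minus miR-NC) of each of the 18 further probes above the minimum signal (y axis) against that of the brightest probe of the same gene (x axis), with a dashed line where both are equal and red for a further probe with an adjusted p under 0.05. Of the 18 points, 15 have the same sign on both axes, and those of CDK1, CKS2 and CENPA do not.

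The list was set beside 142 other mitotic genes, of which 129 were tested, 8 were under the minimum and 5 were not matched. Of the 129, 12 were lower (9.30%), beside 3.66% of all probes tested, and 3 were higher (2.33%), beside 4.30%. The difference was negative in 94 (72.9%), against 50.8% of all probes, and the median was -0.11, as it was over the 44 genes. In 42 of the 129 (32.6%) the arrays labelled miR-331-3p were all below those labelled miR-NC, beside 13.3% of all probes. They were all above in 12 (9.30%), beside 13.4%. The count of 12 lower was 5 without miR-NC A, 5 without miR-NC B, 4 without miR-NC C and 6 without miR-331-3p B, and the count of 3 higher was 1 without miR-NC A and 1 without miR-NC C. With array weights 22 were lower, beside 859 of the 16752 probes. By the methods' t-test with adjustment 0 were lower, beside 0.293% of all probes, and 0 higher, beside 0.686%. The shares by group stand beside the same 3.66% lower and 4.30% higher over all probes. Of 35 kinetochore and centromere genes, 1 was lower (2.86%) and 1 higher (2.86%). Lower were 2 of 16 condensin and cohesin genes (12.5%) and 1 of 16 genes of the anaphase-promoting complex (6.25%). Among 33 spindle and centrosome genes 4 were lower (12.1%) and 1 higher (3.03%). Among 17 entry and exit regulators 4 were lower (23.5%) and 1 higher (5.88%). Of the DREAM, MuvB and NF-Y factors, 0 of 12 genes were called.

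The decrease with the smallest adjusted p among these genes was that of CDC23, a scaffold subunit of the anaphase-promoting complex. It had log2 signals of 9.62, 9.87 and 9.79 in the arrays labelled miR-331-3p, against 10.40, 10.58 and 10.47 in those labelled miR-NC, a difference of -0.73 (adjusted p = 5.4e-04 from limma), or 0.60 fold. ARPP19, an inhibitor of the phosphatase PP2A that favours the mitotic state, had 9.05, 9.04 and 9.16 in the arrays labelled miR-331-3p, against 9.63, 9.72 and 9.94 in those labelled miR-NC, a difference of -0.68 (adjusted p = 0.0011 from limma). Both were lower by more than any of the 44 genes. The cohesin subunit STAG2 (-0.47, adjusted p = 0.0036 from limma) and the condensin subunit NCAPD2 (-0.48, adjusted p = 0.0055 from limma) were also lower, although STAG2 did not pass as the mean of its probes (adjusted p = 0.093). NUMA1, which anchors spindle poles to the cortex, was higher at 0.40 (adjusted p = 0.0082 from limma). These 5 calls stood without each array in turn.

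Another 5 genes passed with calls that depended on single arrays. TRIP13, an ATPase that takes checkpoint complexes apart, was higher at 0.43 (adjusted p = 0.014 from limma), and not without miR-NC A (0.064) or miR-NC C (0.077). WEE1, the kinase that holds CDK1 inactive before mitosis, had 9.41, 9.35 and 9.22 in the arrays labelled miR-331-3p, against 9.03, 8.98 and 8.95 in those labelled miR-NC. It was higher at 0.34 (adjusted p = 0.021 from limma), a call that was lost without any array other than miR-331-3p C (adjusted p from 0.052 to 0.091). CDKN3, a phosphatase of cyclin-dependent kinases, was lower at -0.32 (adjusted p = 0.020 from limma), but not without any single miR-NC array or miR-331-3p A (adjusted p from 0.061 to 0.079). ZWINT, a kinetochore protein, was lower at -0.39 (adjusted p = 0.022 from limma), though not without miR-NC A, miR-NC C or miR-331-3p B (adjusted p from 0.072 to 0.10) or as the mean of its probes (adjusted p = 0.16). PLK4, the kinase of centriole duplication, was lower at -0.29 (adjusted p = 0.029 from limma), and it did not pass without any array other than miR-331-3p C (adjusted p from 0.053 to 0.12). By the methods' t-test with adjustment, none of these 10 genes passed.

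**Figure D5:**
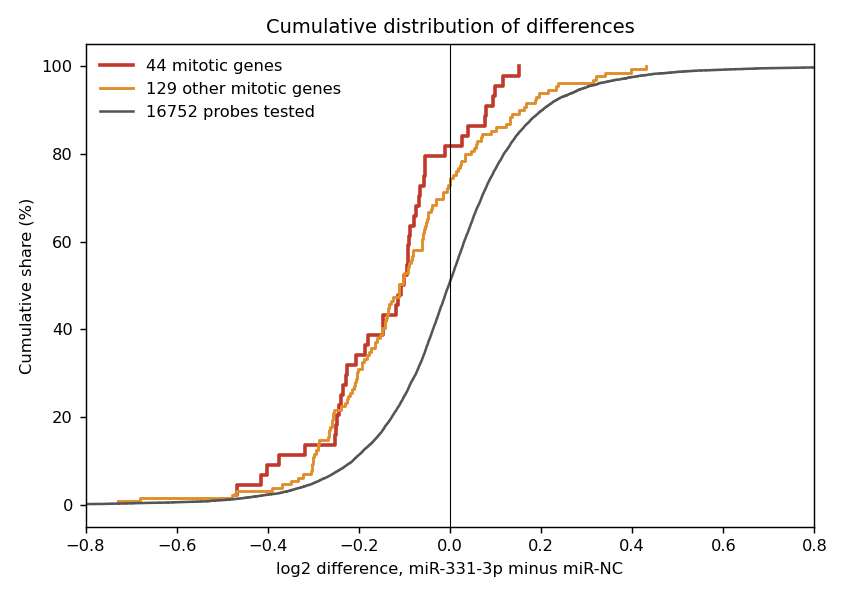
Cumulative share in percent (y axis) of log2 differences (x axis, miR-331-3p minus miR-NC) for the 44 mitotic genes (red), 129 other mitotic genes (orange) and all 16752 probes tested (grey). The median is -0.11 in both lists and -0.0028 over all probes, and the lowest difference of the 44 genes is -0.47.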

How the data were processed

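RNA of LNCaP cells was hybridised to Illumina Human-6 v3 beadchips, 3 arrays per group, with groups taken from the labels. The authors deposited log2 signals: raw intensities had been background corrected, variance stabilised in lumi and quantile normalised in Partek Genomics Suite. Variance stabilisation compresses low signals, so folds of dim genes may be understated, by an amount that was not measured here. The deposited raw table was not used, because its 12 columns are tied to no sample by name.

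Probes were named through the platform annotation. Of 48802 probes, 27577 had 1 symbol (27552 of these matched to RefSeq by gene identifier or accession), 13 had several and 21212 were unnamed here. The 16752 probes with a mean of at least 7 were tested with limma 3.58.1 (lmFit and eBayes) in R 4.3.3, without a block, with Benjamini-Hochberg adjustment across all probes tested and a threshold of 0.05. The fit was also run on simulated data, with independent noise for each probe and changes larger than those of the called members. That run does not show how often changes of their size are found. Sequences were searched and figures drawn with Python 3.11.15, pandas 2.3.3 and matplotlib 3.10.9. The number of arrays limits the precision.

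The members and lists were chosen with earlier results of these data known. Values in every array were given for called members and for AURKA, AURKB, TPX2, PLK1, CDK1, CCNB1, MKI67, TOP2A, BIRC5, FOXM1, BUB1B, CDC20 and INCENP, with the 3 members nearest to 0 named, and up to 10 other called mitotic genes by smallest adjusted p. Alternatives were the minimum signal (none or 7.5), a replicate block, the methods' t-test, cyclic loess, array weights, an intensity trend, the mean of a gene's probes, and leaving out each array.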

Additional observations from a re-analysis of the deposited data

How the results depend on the processing

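Without each array in turn, the number of mitotic genes lower was 2 to 6, their median difference -0.14 to -0.10, the other mitotic genes lower 4 to 12 and higher 1 to 4, and the probes lower 263 to 697 and higher 363 to 765. With the methods' t-test after adjustment, 0 mitotic genes were lower, 0 other mitotic genes were lower and 0 higher, and 49 probes were lower and 115 higher. With array weights, 22 other mitotic genes were lower. The count of 0 mitotic genes higher did not change under any alternative run. AURKA and CDCA8 passed under 13 of 14 alternatives, TPX2 under 11, BIRC5 and CCNA2 under 7 each and KIF11 under 6. As the mean of a gene's probes, the difference was 0.0019 for CKS2, 0.053 for CDK1 and -0.086 for CENPA, each with the sign turned. Without each array, differences crossed 0 for ANLN (-0.17 to 0.010), CDC25C (-0.13 to 0.027), CDC25B (-0.14 to 0.0058), PTTG1 (-0.082 to 0.061), CENPA (-0.037 to 0.084), RACGAP1 (-0.040 to 0.15) and FOXM1 (-0.020 to 0.31). The cause of these changes was not tested. With a replicate block on the letters A, B and C, 5 mitotic genes were lower and 0 higher, and 670 probes were lower and 742 higher; KIF11 was the call lost. Same-letter arrays deviated together with correlations of -0.043, 0.017 and 0.22, so the letters were not taken as pairs, and a same-letter array was the best match in the other group for C but not for A or B. MKI67 had no value at a minimum of 7.5. The number of arrays and the compression of low signals limit what can be called.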
